A study of Mus musculus with 14 samples.

Results

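The tags described here are 20-base transcript signatures that the deposited tables place on the mouse genome but not in a known gene (class code 1000), and whose counts sum to at least 10 over the 14 libraries of the series. There were 11091 such tags, referred to as members, of 412307 with that code and of 1538190 distinct tags in all. They held 379137 counts. Of the members, 8255 carry 1 listed chromosome position and 2836 are listed at several positions, with the number of positions but not their coordinates. Members were chosen by the code and the summed count, so both are descriptions here and not findings. Just outside the minimum lay 1959 tags with a sum of 9, and just inside it 1526 with a sum of 10. No legend of the codes was used here, so "outside known genes" rests on the absence of a gene title beside the position.

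Total RNA of C57BL6 mice was sampled in both sexes, with a single library per sex and tissue. The tissues were stomach, whole spinal cord, parotid gland, pancreas, liver, brain hippocampus and bone marrow. The labels give no allele, treatment or age and do not say how many animals a library holds, so p-values measure the spread between these libraries, which may be technical. Female liver RNA is titled right lobe and male liver RNA left lobe, so lobe and sex cannot be told apart there.

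Massively parallel signature sequencing reads a short tag beside a DpnII site, the letters GATC, near the 3′ end of a cDNA. A tag that falls outside annotated genes can come from an unannotated transcript, from an unannotated end or intron of a known gene, from the antisense strand, from a repeat, or from a sequencing error in an abundant tag, and a tag count alone does not separate these. Salivary gland, exocrine pancreas, liver and stomach each devote much of their RNA to a few secretory genes, while nervous tissue expresses a wide range of transcripts.

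Library totals ran from 2194028 to 3834568 counts. All 20 tissue marker genes that could be found lay above all other libraries in both libraries of their tissue. The limit behind a count of 0, taken as 3 counts, stood for 0.782 to 1.37 CPM, where CPM is the count scaled to a library total of 1e+06. Intervals and such limits cover counting error only.

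The female spinal cord library stood apart. It held 493992 distinct tags against 282513 in the male spinal cord library, and tags of code 1000 without any minimum took 11.96% of its counts against 2.74% in the male. Of the members, 117 had at least 20 counts in it and at least 10 times the male count plus 1, with 11397 counts against 268. Of these, 93 are listed at several positions. A second feature links 6 libraries: 24 members were present at a like level in both bone marrow, both hippocampus and both spinal cord libraries and nearly absent from the other 8. The most abundant of them, multi_3, had 254 female and 501 male counts in bone marrow, 255 and 317 in spinal cord, 279 and 276 in hippocampus and 0 in the other 8 libraries. The same pattern was seen in 0.216% of members, in 0.0965% of gene-assigned tags and in 5.65% of unassigned tags with the same minimum. Its cause was not tested. The sequences of these members are not shown, and results that rest on them are given with and without them.

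The sequences below carry the findings that follow. They are read 5′ to 3′ from the deposited tables, with the DpnII site in capitals. A position is given as the tables list it, with its strand, in a genome build that is not stated in the sources, and a tag with several positions is named multi with its rank by count among such tags. Members seen in all 14 libraries and among the most abundant were the following.
chrM:16180-16199(+): GATCaattctagtagttccc
chrM:16164-16183(-): GATCaggacatagggtttga
multi_2: GATCcagaagaagtgaaatc
chr17:38066561-38066581(+): GATCattaacgggagactgt
chr6:3154053-3154073(+): GATCagataccgtcgtagtt
chr10:11190330-11190350(-): GATCtttcccgctccccgtt

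Members with the highest mean level among those called higher in a tissue are shown next because the tissue comparisons turn on them. Some of them, such as the nervous ones, also had many counts in a second tissue. The members shown come from stomach, parotid, liver, pancreas, bone marrow, hippocampus and spinal cord, in that order.
chr11:58689127-58689147(-): GATCtggtgctggaaagaac
chr11:58689144-58689164(+): GATCcatatatgtgcgtaca
chr7:138051097-138051117(-): GATCttctgtctacctgcac
chr8:101711677-101711697(-): GATCcttgtttctctgcctt
chr2:153754490-153754510(+): GATCtatactgaactcttgg
multi_5: GATCaataaatgattacact
chr3:146530715-146530735(+): GATCcatgggattggagtct
chr5:90447040-90447060(+): GATCaattttgtttataatc
chr4:60971694-60971714(+): GATCaaaaaatgattatact
multi_6: GATCtctttatccttttgtc
multi_7: GATCttctgcatttgactgg
chr3:75347146-75347166(-): GATCatcactggggcttgat
multi_28: GATCaatttcaggcctctgt
multi_8: GATCtgttatttttaagtgt
chr14:100050682-100050702(-): GATCagtgcattaaacaacc
multi_12: GATCtgactcatctggagtg
chr9:15751593-15751613(-): GATCatgaaaacaagttttc
chr2:170133117-170133137(-): GATCtgatgcattctactgg

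Some abundant members nearly repeat a more abundant tag that the tables assign to a gene. Each pair is shown with the bases that differ in capitals, the member before the gene-assigned tag, for antizyme inhibitor 1, which stabilises ornithine decarboxylase, and for parotid secretory protein, a secreted salivary protein.
multi_1: gatcttaaaaaaaaaaaaaT
antizyme inhibitor 1: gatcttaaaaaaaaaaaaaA
chr8:101711677-101711697(-): gatccttgtttctctgcCTT
parotid secretory protein: gatccttgtttctctgcACC
The antizyme inhibitor tag had 222865 counts and multi_1 13465, and the parotid secretory protein tag had 40480 counts and its counterpart on chr8 6883. Among the 20 most abundant members, chr16:3688397-3688417 with 1207 counts differed by 1 base from a tag of ribosomal protein L41 with 60666, and multi_9 with 1158 counts by 1 base from the antizyme inhibitor tag. Over the whole list, 460 members (4.15%) differed by 1 base from a gene-assigned tag at least 20 times as abundant, and the share among gene-assigned tags themselves was 5.68%. A further view takes the first 16 bases alone: 724 members, with 11.97% of the member counts, shared them with a more abundant gene-assigned tag. Whether these members are errors of the abundant tag or transcripts of their own was not tested.

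Members took a larger share of the nervous libraries than of the others. The share of all counts was 1.54% and 1.36% in the female and male hippocampus libraries, 1.92% and 1.16% in spinal cord, 0.966% and 0.727% in liver, and 0.891% and 0.653% in stomach. It was 0.506% and 0.540% in bone marrow, 0.472% and 0.473% in parotid, and 0.206% and 0.207% in pancreas. The exact (Clopper-Pearson) 95% interval of the highest value ran from 1.91% to 1.94%, so counting error was far smaller than the gap between the female and male spinal cord libraries. All 4 nervous libraries lay above all 10 others.

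**Figure D1:**
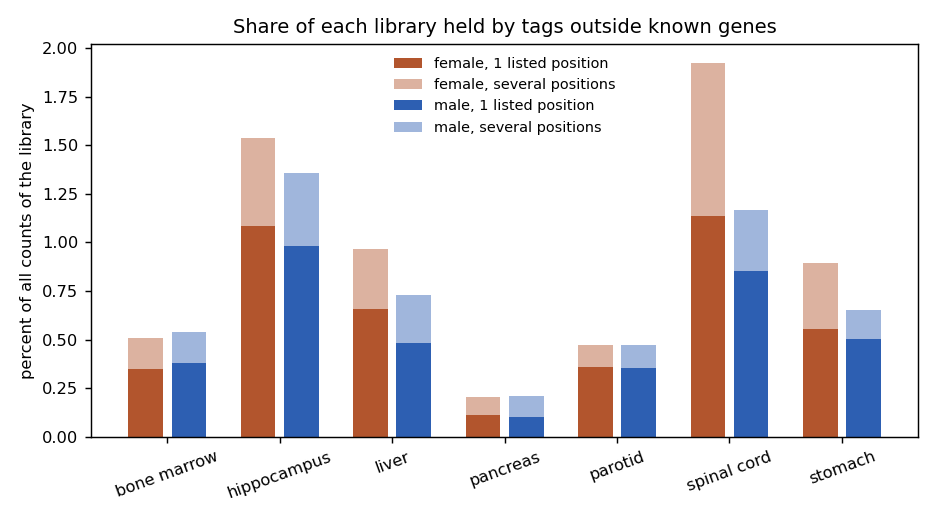
Share of all counts of each library (percent, vertical axis) held by the members, for the female and male library of 7 tissues, in red for female and blue for male, split into tags with 1 listed position (dark) and several positions (light). The nervous libraries run from 1.16% to 1.92% and the other libraries from 0.206% to 0.966%.

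The 4 nervous libraries averaged 1.497% ± 0.324 (SD, n = 4) and the 10 others 0.564% ± 0.254 (SD, n = 10). The difference of 0.933 percentage points had p = 0.001998 in a two-sided exact permutation test over the 1001 ways to pick 4 of 14 libraries, the smallest p that test can give. That test treats the libraries as independent, although both libraries of a tissue share that tissue. With tissue means as the units, an alternative chosen after seeing the data, the same difference had p = 0.0952 in the exact permutation test over the 21 ways to pick 2 of 7 tissues, again the smallest it can give, so a design of 7 tissues cannot reach 0.05 here. With members of 1 listed position alone the difference was 0.63 points. With no count minimum it was 4.84 points, with shares of 4.99% and 3.61% in hippocampus and 11.96% and 2.74% in spinal cord. Tissues are mixtures of cells, and fewer cells of a type and less RNA per cell cannot be told apart. Pancreas and parotid are the libraries in which a few tags take most counts: outside the 10 most abundant tags of each library, members took 0.735% of pancreas and 1.45% of parotid counts, and the nervous difference was 0.668 points (exact permutation p = 0.00599).

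The number of members seen was also higher in the nervous libraries. It was 8337 and 6635 in the female and male spinal cord libraries, 8214 and 7648 in hippocampus, 3036 and 3003 in bone marrow, and 971 and 746 in pancreas. The nervous libraries also held more distinct tags of any kind, 282513 to 493992, against 48808 to 235927 in the others. The numbers of members seen are not adjusted for this. Most members were sparse: 65.3% had 10 to 19 counts in all, while the 147 members with 200 or more held 34.4% of the member counts. Only 77 members were seen in all 14 libraries, and 184 were seen in 1.

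**Figure D2:**
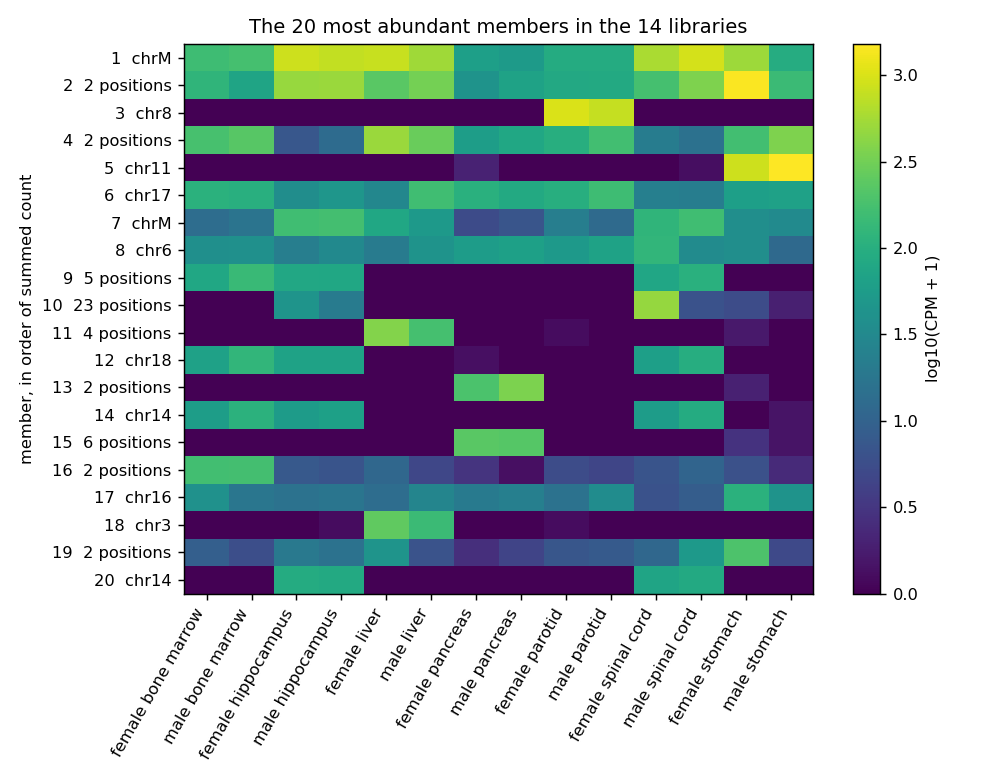
Level of the 20 most abundant members (rows, in order of summed count, named by chromosome or number of listed positions) in the 14 libraries (columns), as log10(CPM + 1). Rows 1, 2, 4, 6, 7 and 8 are filled in all 14 libraries, row 3 is bright in parotid and row 5 in stomach, and rows 9, 12 and 14 are bright in the 6 libraries of bone marrow, hippocampus and spinal cord.

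The most abundant member was chrM:16180-16199 on the forward strand, in the control region of the mitochondrial genome, which holds the promoters of both strands. Its counts, female then male, were 3010 and 2765 in hippocampus, 2028 and 2876 in spinal cord, 2038 and 2011 in liver, 1619 and 203 in stomach, 506 and 598 in bone marrow, 343 and 345 in parotid, and 184 and 157 in pancreas. The female and male stomach libraries lay far apart. The tag on the opposite strand of the same site, chrM:16164-16183, had 2868 counts, with 552 and 601 in hippocampus and 13 and 17 in pancreas. Together these mitochondrial members held 8.67% ± 0.96 of the member counts in liver and 2.26% ± 0.17 in parotid (SD, n = 2).

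Some further members found everywhere carry bases of the ribosomal RNA genes. The tag chr17:38066561-38066581, which reads the end of 18S ribosomal RNA and the start of the spacer behind it, had 351 and 354 counts in bone marrow, 71 and 608 in liver, 312 and 250 in pancreas, and 76 and 65 in spinal cord. In liver this was 28.8 CPM in the female and 160.2 CPM in the male library. The tag chr6:3154053-3154073, with letters of 18S ribosomal RNA, had 420 counts in the female and 100 in the male spinal cord library, and 192 and 258 in parotid. The tag multi_2, also found everywhere, was not assigned an origin here. It had 22 and 42 counts in hippocampus and 69 and 44 in spinal cord, against 1226 and 1073 in liver and 591 and 789 in bone marrow. All 4 nervous libraries lay below the 10 others for multi_2.

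edgeR's quasi-likelihood test compared every tissue with the average of the remaining 6, fitted on all tags with any class code. The filter on low counts kept 1411 members (12.7%), which hold 56.3% of the member counts, and 9680 members were not tested. A member that passed the filter through 1 tissue had to differ between tissues. The counts below are therefore given beside those over all 32897 tags tested and support nothing on their own. The same limit applies to the tissue p-values of single members named below, which were picked as the highest of those called. Calls required a fold of 2 or more with an adjusted p under 0.05. Hippocampus had 673 members called higher (47.7% of those tested, background 33.1% of all tags tested) and 35 called lower (2.48%, background 8.97%). Spinal cord had 612 higher (43.4%, background 31.7%) and 21 lower (1.49%, background 6.14%). Liver had 248 higher (17.6%, background 17.6%) and 13 lower (0.92%, background 5.77%). Bone marrow had 189 higher (13.4%, background 17.7%) and 42 lower (2.98%, background 8.25%). Stomach had 168 higher (11.9%, background 15.9%) and 3 lower (0.21%, background 1.6%). Parotid had 105 higher (7.44%, background 8.15%) and 1 lower (0.071%, background 1.63%). Pancreas had 74 higher (5.24%, background 4.94%) and 0 lower (background 1.53%) in edgeR's test. In liver, parotid and pancreas the members' share called higher lay near the background. In pancreas 101 tested members had an unadjusted p under 0.05 in either direction, DESeq2 called 0 lower and limma voom 9.

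**Figure D3:**
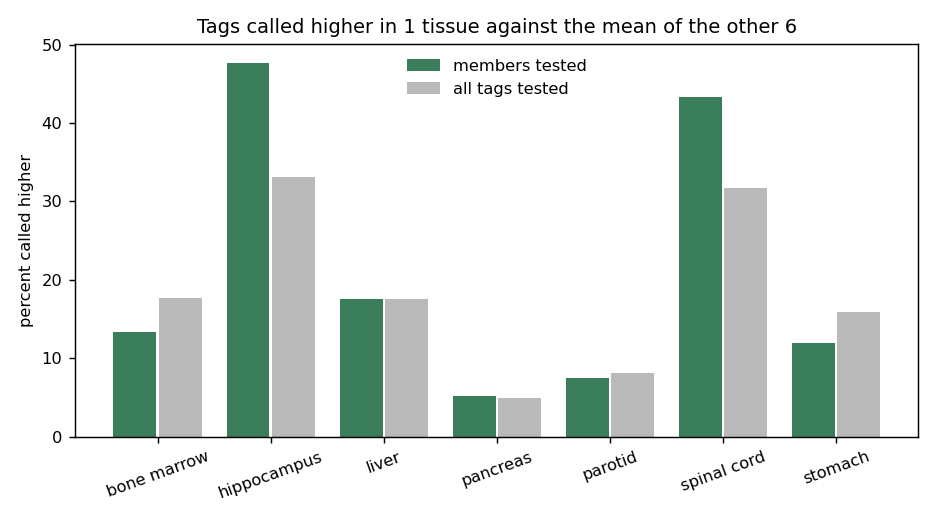
Percent of the tested members (green) and of all tags tested (grey) called higher in each tissue against the mean of the other 6. In hippocampus 47.7% of tested members were called against 33.1% of all tags, in spinal cord 43.4% against 31.7%, and in bone marrow 13.4% against 17.7%.

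The median log2 difference of the tested members was 1.68 in hippocampus and 1.52 in spinal cord, against 0.43 and 0.55 over all tags tested. It was -1.51 in bone marrow, -1.49 in liver, -1.49 in parotid, -1.90 in pancreas and -0.96 in stomach, against -0.32, -0.28, -0.17, -1.16 and 0.17 over all tags. Only tested members enter these medians, and a member can pass the filter through the tissue where it is high, so the medians support nothing on their own. They also depend on scaling and on the tool. With limma voom the members' median was 0.76 in hippocampus, 0.35 in spinal cord and 1.28 in pancreas. With DESeq2's Wald test it was 1.38, 1.13 and 0.85, so in pancreas the sign changed with both tools. In the remaining tissues the members' median stayed negative with both. With library totals in place of TMM scaling, the median over all tags moved to 1.52 in hippocampus, 1.68 in spinal cord, -2.95 in pancreas and -1.10 in parotid. The split of members into higher and lower then changed from 74 and 0 to 48 and 190 in pancreas, from 105 and 1 to 90 and 29 in parotid, and from 189 and 42 to 219 and 19 in bone marrow. With DESeq2's Wald test the counts called higher fell to 169 in hippocampus, 136 in spinal cord, 65 in liver, 69 in bone marrow, 46 in stomach, 35 in parotid and 40 in pancreas. With limma voom, many more members were called lower in every tissue but pancreas. Its split into higher and lower was 514 and 457 in hippocampus and 413 and 432 in spinal cord.

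Stomach had the most abundant tissue-restricted pair. The tag chr11:58689127-58689147 on the reverse strand had 2716 counts in the female and 3328 in the male stomach library and 4 counts in the other 12 libraries together, a mean of 1191 ± 461 CPM (SD, n = 2). Its log2 difference was 13.63 ± 0.45 (SE), with an adjusted p of 4.9e-23 in edgeR's test. It was picked for its stomach level, so this p-value restates that choice. The tag on the other side of the same DpnII site, chr11:58689144-58689164, had 394 and 173 counts in stomach and 0 elsewhere, at least 1362-fold above 3 counts pooled over the other 12 libraries. The tag chr7:138051097-138051117 had 315 and 559 stomach counts and 1 count elsewhere, and chr8:13359823-13359843 had 270 and 168 and none elsewhere. In these 4 members no other library held more than 3 counts. DESeq2's Wald test did not call chr11:58689144-58689164 or chr8:13359823-13359843.

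Parotid had members at 0 in every other tissue. The tag chr8:101711677-101711697 had 3832 and 3051 parotid counts and none in the other 12 libraries, a mean of 903.1 ± 152 CPM (SD, n = 2) and at least 11352-fold above 3 counts pooled over those libraries. It accounted for 94.0% of the parotid counts of members on chromosome 8. The gene-assigned tag with the same opening bases had 21693 and 18785 parotid counts, so the female library was the higher for both. The tag chr2:153754490-153754510 had 423 and 373 counts and none elsewhere, at least 1312-fold. The tag chr13:36622191-36622211 had 416 and 190 parotid counts and 1 in the female pancreas library, and made up 53.1% of the parotid counts of members on its chromosome. The tag multi_19 had 278 and 345 parotid counts and 13 elsewhere. Over all members, 160 (1.44%) were seen in both parotid libraries and in no other, beside 0.335% of gene-assigned tags. These 160 members held 14730 counts. Of those counts, 6883 belong to chr8:101711677-101711697 and 854 to multi_13, which both nearly repeat the parotid secretory protein tag. The median summed count was 15 in members and 36 in gene-assigned tags, so the shares compare classes of unlike depth.

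In liver alone 335 members (3.02%) were seen, with 11619 counts, and 1147 gene-assigned tags (1.63%) with the same minimum; liver had the most tags of this kind in both classes. The tag multi_5, listed at 4 positions, had 956 and 656 liver counts and 3 elsewhere, a mean of 280 ± 152 CPM (SD, n = 2). The tag chr3:146530715-146530735 had 624 and 560 and 2 elsewhere. The tag chr5:90447040-90447060 had 296 and 337 counts and none elsewhere, at least 1360-fold, and chr4:60971694-60971714 had 178 and 457 and none elsewhere, at least 1254-fold. For the last the male library was the higher.

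Pancreas was led by tags listed at several positions. The tag multi_6 had 569 and 1027 pancreas counts and 3 in the other libraries, all in the female stomach library, a mean of 271 ± 115 CPM (SD, n = 2). The tag multi_7 had 700 and 643 pancreas counts and 6 and 1 in stomach. The tag multi_28 had 291 and 201, and chr3:75347146-75347166, with 273 and 235 counts, made up 52.1% of the pancreas counts of members on chromosome 3. For each of these 4 members the only other tissue with counts was stomach. The log2 differences in edgeR's fit ran from 12.81 to 14.67, with adjusted p-values of 3.4e-23 or less. These members passed the filter through pancreas and were picked for their level there, so these p-values restate that choice. The tag chr10:11190330-11190350 was present in all 14 libraries, from 15 counts in the male hippocampus to 91 in the female parotid library, with 85 and 73 in pancreas.

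Bone marrow was led by multi_8, with 537 and 591 counts there and from 1 to 29 counts in each of the other 12 libraries, a mean of 166 ± 5.47 CPM (SD, n = 2) and a log2 difference of 4.68 ± 0.31 (SE, adjusted p 2e-15 in edgeR's test). The tag chr15:100630408-100630428 had 153 and 186 counts, with 8 or fewer in any other library. The tag chr15:75242292-75242312 had 133 and 171 counts, and outside bone marrow only 2 in each spinal cord library, and DESeq2's Wald test did not call it. The tag multi_15, listed at 54 positions, was present in all libraries, with 140 and 178 counts in bone marrow and 83 and 64 in liver, and its call was lost without the male bone marrow library. Of the 189 members called higher in bone marrow, 21 belong to the 6-library pattern described above, and 168 remained without them. The same 21 members were among those called in hippocampus and spinal cord, where 652 and 591 remained.

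In the nervous tissues, chr14:100050682-100050702 had 313 and 304 counts in hippocampus and 241 and 255 in spinal cord and none in the other 10 libraries. The tag on the forward strand of its site had 253 counts and also led in hippocampus. The tag multi_12 was mostly in hippocampus, with 465 and 460 counts there, 32 and 38 in spinal cord and 5 or fewer elsewhere. The tag chr9:15751593-15751613 had 222 and 230 counts in hippocampus and 80 and 101 in spinal cord. In spinal cord the leading tags were less separate from hippocampus: chr2:170133117-170133137 had 157 and 185 counts against 63 and 100, multi_29 had 151 and 140 against 102 and 81, chr9:98585774-98585794 had 119 and 165 against 74 and 55, and multi_37 had 113 and 126 against 74 and 85. Each was called higher in spinal cord against a mean that includes hippocampus, and DESeq2's Wald test did not call the first. The hippocampal tag chr18:77940523-77940543 had 174 and 185 counts there against 60 and 75 in spinal cord.

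Hippocampus and spinal cord were also set against each other. Of the tested members, 36 (2.55%) were called higher in hippocampus and 26 (1.84%) higher in spinal cord, against a background of 2.29% and 1.94% of all tags tested, so the members' shares lay near the background. The tag chr17:79304457-79304477 had 134 and 169 counts in hippocampus against 3 and 2 in spinal cord, a log2 difference of 5.70 ± 0.73 (SE, adjusted p 2.39e-06 in edgeR's test). The tag multi_12 had a log2 difference of 3.60 ± 0.51 (adjusted p 9.34e-06). In the other direction, chr9:45090606-45090626 had 62 and 57 counts in spinal cord against 1 and 2 in hippocampus, a log2 difference of -5.24 ± 0.86 (adjusted p 0.000117). The tags chr7:40778356-40778376, with 68 and 101 against 18 and 22 counts, and chr8:30577806-30577826, with 64 and 75 against 15 and 8, were called with adjusted p-values of 0.0341 and 0.0102 in the same test. The tags chr4:103046213-103046233, with 132 and 74 against 11 and 10 counts, and chr18:38563656-38563676, with 79 and 88 against 9 and 20, were called higher in hippocampus. The call on multi_26 rests on 1 library: it had 429 counts in the female spinal cord library, 14 in the male, and 50 and 10 in hippocampus.

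These counts moved with single libraries. Without the female or the male hippocampus library, 4 or 6 members were called higher in hippocampus and 1 or 10 higher in spinal cord. Without the female or the male spinal cord library, 4 or 8 were called higher in hippocampus and 1 or 24 higher in spinal cord. Of those 24, only 5 were among the original 26. Without the female or the male stomach library the counts rose to 90 or 91 in hippocampus and to 79 in spinal cord. DESeq2's Wald test called 3 and 2. Of the 8 members named here, chr17:79304457-79304477 and multi_12 were called in all 20 alternatives, chr9:45090606-45090626 was lost in DESeq2's test alone, and the other 5 were lost in 4 to 7.

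Between the sexes over the 7 tissues, 11 members were called higher in male and 11 higher in female libraries, against 0.0973% and 0.152% of all tags tested. All 11 male members are listed at several positions, from 3 to 85, and none had a count in any female library. They had 358 counts in the male hippocampus, 271 in the male spinal cord and 31 in the male stomach library, of 668 in all male libraries. The tag multi_109 had 41, 50 and 25 counts in these 3 libraries and 0 in the other 11, a log2 difference of 7.08 ± 0.93 (SE, adjusted p 3.73e-05 in edgeR's test). The tag multi_104, listed at 45 positions, had 55 and 66 in the male hippocampus and spinal cord libraries and 0 elsewhere. The tag multi_168 had 59 and 16, multi_259 had 29 and 24, and multi_278 had 18 and 31 in the same libraries, with 1 or 2 counts in the male stomach library. In no male member did all 7 male libraries lie above the female ones.

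The 11 female members had 4805 of their 5545 female counts in the spinal cord library that stood apart, and all 11 were among the 117 members with the female excess there. The tag chr3_random:1855-1875 had 788 counts in the female and 22 in the male spinal cord library, 125 and 23 in hippocampus, and 31 and 0 in stomach (log2 male minus female -3.45 ± 0.54, SE, adjusted p 0.000451 in edgeR's test). The tag multi_4, listed at 23 positions and among the 20 most abundant members, had 1616 against 16 in spinal cord and 148 against 71 in hippocampus. The tag multi_22 had 534 against 2 in spinal cord and 30 against 11 in hippocampus, and multi_41 had 297 against 6 and 63 against 12. Without the stomach, bone marrow, pancreas or parotid libraries in turn the count of members called between the sexes rose from 22 to between 59 and 92. It was 41 without the female and 44 without the male liver library, and 35 without either hippocampus library, with 12 of the 22 among those 35. Without the female spinal cord library 16 were called, 4 of them among the 22, and without the male one 15 were called, 3 of them among the 22. Neither DESeq2's Wald test nor limma voom called any of the 1411 tested members, while 121 had an unadjusted p under 0.05 in edgeR's test.

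**Figure D4:**
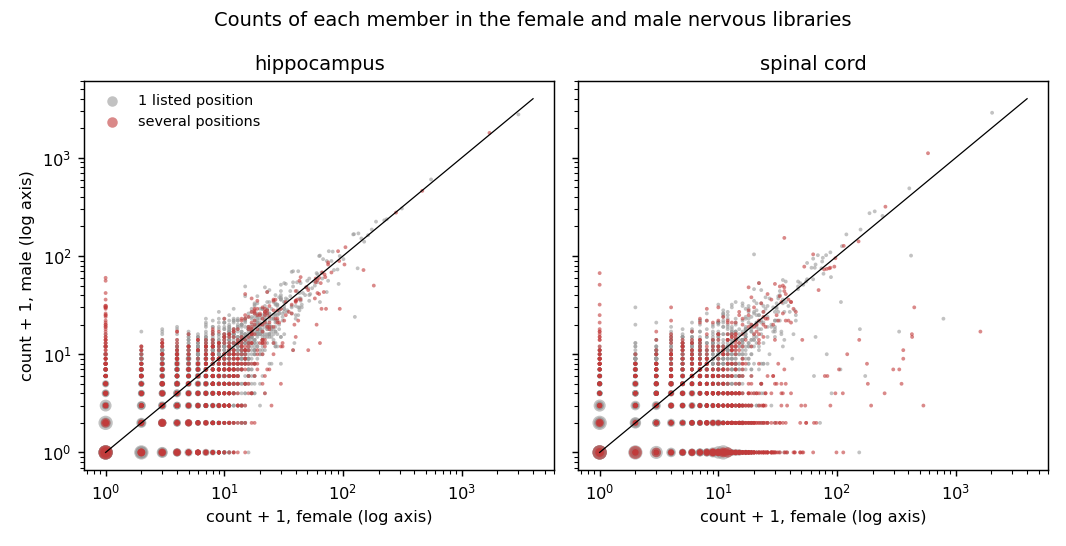
Counts plus 1 of each member in the female (horizontal) and male (vertical) library of hippocampus and spinal cord, both axes log scaled, for members with 1 listed position (grey) and several positions (red); point size grows with the number of members at the same counts, and the line marks equal counts. In spinal cord, points lie far below the line, where 117 members have 11397 female against 268 male counts.

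In liver, a fit with its own sex term called no member, while 29 had an unadjusted p under 0.05 in edgeR's test (background 0.0304% higher in male and 0.0517% higher in female). The difference between the sex fold in liver and that in the other tissues also gave 0 members, with 27 at an unadjusted p under 0.05 (background 0% more male and 0.0152% more female in liver). A run of 8 members at chr7:23108641-23122829 had 343 counts in the female liver library and 0 in the male and all other libraries, and was noticed after its values were seen. Members on chromosome X, 283 in all, had a mean log2 male minus female difference of -0.50 ± 0.62 (SD over 7 pairs, n = 7), with p = 0.0938 in a two-sided exact paired permutation test whose smallest p is 0.0156. Female libraries were higher in 5 of 7 pairs, by the most in pancreas and stomach. The pancreas value rests on 24 female and 10 male counts. In stomach, members of all chromosomes together also took more of the female library, 0.891% against 0.653%. The same held in spinal cord (1.92% against 1.16%), liver (0.966% against 0.727%) and hippocampus (1.54% against 1.36%), but not in pancreas (0.206% against 0.207%). The X values are not adjusted for these shares. Tags assigned to chromosome Y, with no count minimum, had 108 male and 11 female counts in hippocampus and 60 and 10 in spinal cord. In stomach they had 10 male and 20 female counts, and no other library had more than 6. One member was assigned to chromosome Y, chrY_random:28927874-28927894, with 51 counts, and female libraries had counts of it too, 8 in hippocampus and 16 in stomach. Its mean log2 difference, taken on CPM plus 0.1, was 0.85 ± 1.40 (SD, n = 7, exact permutation p = 0.188). The male library was higher in 4 pairs and the female in 3. The largest values, 1.95 in bone marrow, 2.15 in pancreas and 2.64 in parotid, rest on very few counts. These were 0 female against 1 male in bone marrow and in pancreas, and 0 against 2 in parotid.

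Members lay close together in the genome in places. Members with 1 listed position were linked where they lay within 10 kb of each other, which put 2560 (31.0%) into 1047 runs of 2 or more. There were 45 runs of 5 or more, with 282 members, and in 18 of them at least 90% of the summed level came from 1 tissue. Parotid led 9 of the 45 runs, liver 13, hippocampus 10, spinal cord 9 and stomach 2.

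**Figure D5:**
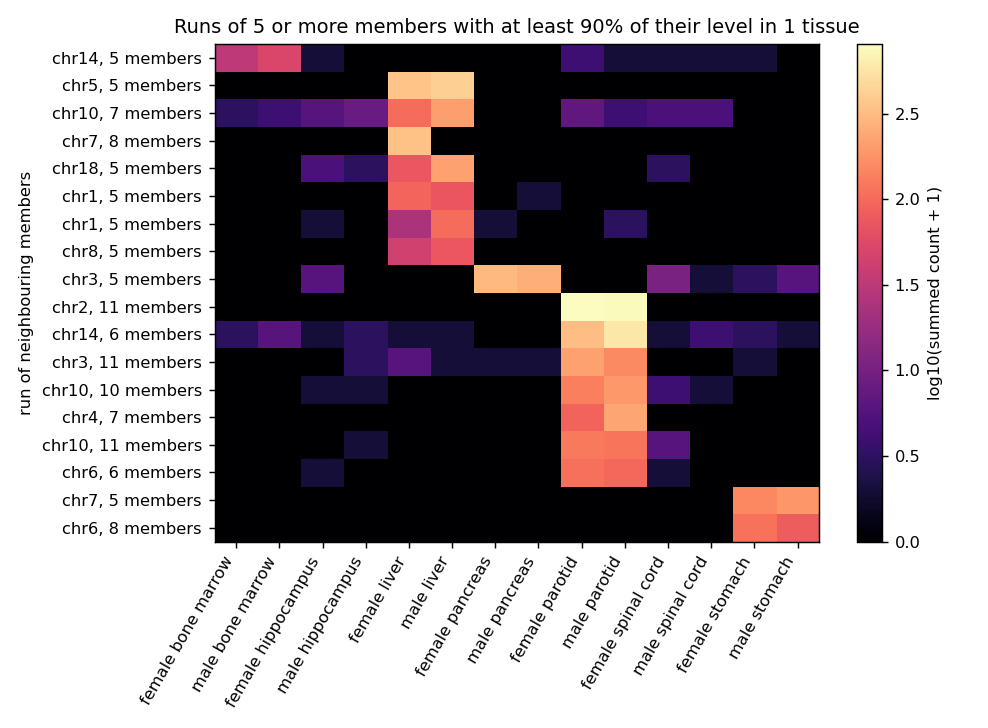
Summed counts (log10(count + 1), colour) of the 18 runs of 5 or more members with at least 90% of their level in 1 tissue, by library (columns). Liver holds 7 runs, parotid 7, stomach 2, and pancreas and bone marrow 1 each, and the chr7 run of 8 members is filled in the female liver library alone.

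In parotid, 11 members at chr2:153749102-153757536 had 807 and 784 counts and none in any other library. They include chr2:153754490-153754510, shown above. Further parotid runs were chr3:113312402-113324685 (11 members, 223 and 157 counts), chr10:111317582-111344485 (11 members, 123 and 118), chr10:28747444-28763842 (10 members, 132 and 194) and chr4:149177090-149186661 (7 members, 91 and 233). The last had no count outside parotid, and in the others 96.3% to 97.9% of the summed level came from parotid. Members of both strands occur in each of these runs.

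In stomach, 8 members at chr6:87417667-87426005 had 112 and 82 counts and 5 members at chr7:138239598-138245354 had 153 and 190, with none in other tissues. In liver, 5 members at chr5:90442148-90447060 had 352 and 414 counts, and 5 members at chr8:122735284-122736906 had 43 and 72, again with none elsewhere. The liver run chr1:58452073-58454658 differed between the libraries, with 23 female and 102 male counts. In pancreas, 5 members at chr3:75345089-75348672 had 301 and 265 counts. The run at chr17:38059885-38066581, which holds the ribosomal tag, had 11 members and 5115 counts and no leading tissue above 18.6% of its level.

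Some members could be placed by sequence. Matched without mismatch to windows of 250 bases before to 50 after each RefSeq gene start of the GRCm38.p6 table, 70 members (0.631%) hit windows of 67 genes, and 433 gene-assigned tags (0.614%) did so. Of 32851 windows, 48.0% hold a GATC at all. All 49 single-position members that matched lay on the listed chromosome and none at the listed coordinate, so the tables use another build. The stretches below, from RefSeq, are shown on the gene's strand with the member's bases in capitals. Their genes were picked from the 67, after the values were seen, as genes known from the tissue that leads the member. Their levels across tissues were checked in these data for Bpifa2 and Gkn1 only, and many other matched genes have no such link. Bpifa2 encodes parotid secretory protein, Gkn1 gastrokine 1 of the stomach surface, Apoa2 an apolipoprotein of liver, and Pax5 the B cell identity factor.
Bpifa2, chr2:154008215-154008264 (+): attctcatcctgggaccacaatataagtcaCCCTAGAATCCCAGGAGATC
Gkn1, chr6:87350896-87350948 (-): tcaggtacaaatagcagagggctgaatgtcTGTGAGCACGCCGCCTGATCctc
Apoa2, chr1:171224815-171225041 (+): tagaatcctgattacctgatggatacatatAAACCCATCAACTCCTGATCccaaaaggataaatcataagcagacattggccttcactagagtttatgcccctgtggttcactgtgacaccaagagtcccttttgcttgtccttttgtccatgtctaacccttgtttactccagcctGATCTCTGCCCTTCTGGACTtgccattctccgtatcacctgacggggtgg
Pax5, chr4:44710675-44710744 (-): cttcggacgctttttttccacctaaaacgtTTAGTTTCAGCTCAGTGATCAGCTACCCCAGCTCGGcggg

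At Bpifa2 the capitals are the antisense member chr2:153749102-153749122, with 50 and 46 parotid counts and none elsewhere, from base -12 to -31, which belongs to the parotid run of 11 members on chr2. The member multi_13, listed at 3 positions, also matches antisense, from base 8 to -12, with 484 and 370 parotid counts. It differs in 1 base, its last, from the parotid secretory protein tag of 40480 counts, and whether its counts are errors of that tag was not tested. At Gkn1 the member is antisense, spans base 17 to -3, had 26 counts and lies in the stomach run on chr6. At Apoa2 a sense member with 31 counts spans bases -62 to -43 and an antisense one with 14 counts bases -190 to -209, and both lie in a liver run of 5 members on chr1 with 92 and 71 liver counts. At Pax5 the capitals cover both sides of 1 site. The sense member there had 18 and 22 counts in bone marrow and 1 in each parotid library, and the antisense one 9 and 4 in bone marrow. A match is a description of shared letters and not a promoter transcript.

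Sites where both sides were members showed like tissues. There were 219 pairs of members on opposite strands of 1 DpnII site, and in 162 (74.0%) both led in the same tissue. The higher count of a pair was a median of 2.61 times the lower, and up to 99.2 times at the ribosomal site on chr17. By strand the single-position members were even, 4094 forward and 4161 reverse. Sequence differed from that of gene tags in description: the median GC content of the 16 bases after GATC was 37.5% in members and 43.8% in gene-assigned tags with the same minimum. A run of 8 or more A occurred in 258 members, 2.33% of all, beside 0.98% of gene-assigned tags. They held 28224 counts, of which 13465 belong to multi_1.

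Leading tissue and chromosome complete the description. Spinal cord led 37.6% of members and hippocampus 31.2%, against 27.2% and 25.8% of gene-assigned tags with the same minimum. At least 90% of the summed level came from 1 tissue in 15.9% of members and in 8.39% of gene-assigned tags. Since the minimum acts on low counts, members and gene tags differ in depth, with medians of 15 and 36 counts. Of every 100 distinct tags with the code, 1.496 on chromosome X reached the minimum, 1.90 on chromosome 1 and 3.03 on chromosome 7. Chromosome 8 held 20.4% ± 3.34 of the member counts in parotid and chromosome 11 20.3% ± 9.51 in stomach (SD, n = 2), each carried by the single tag named above, which made up 94.0% and 78.9% of the chromosome's counts there.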

How the data were processed

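Members and lists were chosen with earlier results of these data known. The deposited files hold raw counts per distinct tag, 1 count per sequenced copy, with the position or gene title and class code that the authors gave. Per the labels, mRNA was reverse transcribed, cut with DpnII and captured with MmeI, and 20 bases were read; no aligner or genome build is stated in the sources used. All 14 labels state the cluster total of the female bone marrow library.

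Shares use all counts of a library. Tests used edgeR 4.0.16 (R 4.3.3) after filterByExpr by tissue, with TMM scaling and terms for tissue and sex (6 residual degrees of freedom), on tags with any class code and Benjamini-Hochberg adjustment over all 32897 tags tested. Unassigned tags (3.69% to 18.6% of a library) were left out of the tests and of their library sizes. The self-test ran on simulated counts. Alternatives were library totals, DESeq2 1.42.0 size factors and Wald test, limma 3.58.1 voom, no filter, other minimums, no sex term and each library left out. Python 3.11.15, pandas 2.3.3 and scipy 1.17.1 did the rest.

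Named members are the 20 most abundant, for each tissue the 4 of highest mean level that were called higher and exceeded the other 12 libraries in both of its own, the 4 highest per direction between hippocampus and spinal cord, up to 5 per sex by p, the Y member, and the member most abundant on its chromosome over all 14 libraries, where it held over 50% of that chromosome's counts in a tissue. The runs shown and the 4 matched genes were chosen after their values were seen, as were the alternatives that leave out the 6-library pattern, the members high in female spinal cord, those sharing 16 bases with a gene tag, those with several positions, and tissue means in place of libraries. Sequences on chromosome 18, of the 6-library pattern and of tags 1 base from a gene tag 20 times as abundant are not printed.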

Additional observations from a re-analysis of the deposited data

Results flagged for a closer look

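A signal outside the members met a rule for a closer look. Unassigned tags, which have no class code and enter no comparison here, include 1956 that follow the 6-library pattern of bone marrow, hippocampus and spinal cord. They hold 719771 counts, 2.94% of the female and 5.10% of the male bone marrow library and 3.11% to 3.95% of the 4 nervous libraries, against 0.0022% or less in each of the other 8 libraries. Which RNA they come from was not tested.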

How the results depend on the processing

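The nervous difference in share kept its direction in every alternative, from 0.291 to 4.84 points, and from 0.790 to 1.04 points with a library left out. Its p stayed under 0.05 in every alternative with libraries as units, which treat both libraries of a tissue as independent. With tissue means as units, the difference of 0.933 points had an exact permutation p of 0.0952, the smallest that test can give. Tissue shares are given in the order bone marrow, hippocampus, liver, pancreas, parotid, spinal cord and stomach, wherever they changed by more than 1 SD of the tissue's libraries. With no count minimum they were 1.001%, 4.30%, 1.42%, 0.284%, 0.811%, 7.35% and 1.42%, and with a minimum of 50 they were 0.289%, 0.643%, 0.521%, 0.161%, 0.328%, 0.667% and 0.520%. With a minimum of 5, all but liver and stomach changed by more than that, to 0.660%, 2.08%, 0.226%, 0.553% and 2.54%. Outside the 10 most abundant tags, all but spinal cord did so, to 0.776%, 1.71%, 1.16%, 0.735%, 1.45% and 1.23%, and without the 20 most abundant members to 0.413%, 1.26%, 0.640%, 0.121%, 0.328% and 0.486%. Without 1-base neighbours bone marrow, pancreas and parotid changed to 0.489%, 0.188% and 0.443%. With a library of the tissue left out, shares were 0.506% to 0.540%, 1.36% to 1.54%, 0.727% to 0.966%, 0.206% to 0.207%, 0.472% to 0.473%, 1.16% to 1.92% and 0.653% to 0.891%.

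Counts called higher, in the same order, were 69, 169, 65, 40, 35, 136 and 46 with DESeq2's test and 580, 2700, 964, 149, 410, 2829 and 444 without the filter. Library totals gave 48 in pancreas. limma voom gave 771 in pancreas and 107 in stomach, and its split into higher and lower was 175 and 914 in bone marrow. The limma voom split was 514 and 457 in hippocampus, 413 and 432 in spinal cord and 234 and 747 in liver. In parotid it was 103 and 343, in stomach 107 and 471 and in pancreas 771 and 9. With a minimum of 50, hippocampus had 439, liver 144 and spinal cord 400. With a library left out, the counts ran from 170 to 322, 535 to 1186, 281 to 522, 62 to 107, 110 to 175, 396 to 1384 and 127 to 313; the 396 is without female spinal cord. Calls between the sexes numbered 38 with library totals, 72 without the filter, 0 with DESeq2's test, 0 with limma voom and 15 to 92 with a library left out. Between hippocampus and spinal cord, DESeq2's test gave 3 and 2, a minimum of 50 gave 14 higher in spinal cord, and a left-out library gave 4 to 91 and 1 to 79. On chromosome X the mean sex difference ran from -0.67 to -0.39 with a tissue pair left out, and for the Y member from 0.55 to 1.14. The cause of these changes was not tested.

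The female and male library of a tissue are paired in the sex comparisons, through the tissue term or the sign flips. Between tissues, no paired analysis was possible because the replicate numbers were given in accession order and name no shared animal. With 1 library per tissue and sex, a tissue's spread rests on its female and male library, and 9680 members were too sparse to test.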

Other observations

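The counts of members 1 base away from a gene-assigned tag 20 times as abundant were not even along the tag. The differing base was at position 20, counted from the G of GATC, in 86 of the 460 members, at position 19 in 51 and at position 18 in 46, against 12 at position 5. Single members also match microRNA hairpins of the RefSeq table: of 1005 hairpins searched, Mir6905 and Mir7688 each held 1 member on the sense strand. The Mir7688 tag had 75 counts, 14 and 8 in hippocampus and 10 and 20 in spinal cord, and the Mir6905 tag had 11 counts.

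Members with a run of 8 or more A varied between libraries of 1 tissue. They held 2561 CPM in the female and 253 CPM in the male stomach library, and 434 and 848 CPM in spinal cord, while the parotid libraries had 343 and 305 CPM.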
